A study of Homo sapiens with 12 samples.

Results

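The genes described here are 10 genes of the YAP and TEAD transcription programme, namely YAP1, TEAD1, LATS2, AMOTL1, AMOTL2, AJUBA, CCN1, CCN2, ANKRD1 and AXL. They were given as a list of names drawn up with earlier results of these data known, and all 10 were found among the 21574 features of the deposited expression table. The table holds RNA-seq of cultured MDA-231-LM2 cells, which were selected for lung metastasis out of MDA-MB-231, a human line of breast cancer. The 12 libraries form 4 groups of 3, TMEM216+IGF1, TMEM216, Ctrl+IGF1 and Ctrl, in which 2 cell populations (TMEM216 and Ctrl) were each profiled with and without IGF1, a ligand of the receptor IGF1R. By its title, the series asks how TMEM216, a gene for a transmembrane protein at the base of the primary cilium, affects the transcriptome of these cells. How TMEM216 and the Ctrl cells were modified, whether a population is 1 clone, and the dose and duration of IGF1 are not given by the labels. Separate cultures for the replicates are not stated either, and the p-values therefore reflect only the spread among these libraries, some of which may be technical.

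YAP1 is a transcriptional coactivator that has no DNA-binding domain of its own and acts on genes mainly through TEAD factors, of which TEAD1 is one. The Hippo kinases LATS1 and LATS2 phosphorylate YAP1 and keep it in the cytoplasm, angiomotin family proteins bind it there, and several genes that restrain YAP1 are themselves its targets, which makes a negative feedback. Activity of YAP1 is set largely by its phosphorylation and location, which RNA levels do not show. In breast cancer cells the pathway is known for its response to cell density, matrix stiffness and serum, and MDA-MB-231 is known to carry a defect in the upstream regulator NF2.

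Expression was given as TPM, an abundance per transcript length scaled to a fixed total per library, so levels can be set side by side between genes, and the sequencing depth is unknown. TMEM216 itself averaged 219 ± 29.2 TPM in the 6 TMEM216 libraries and 26.8 ± 2.68 TPM in the 6 Ctrl libraries (SD), a log2 fold change of 3.01 with IGF1 and 2.94 without it (SE 0.14 each). All 5 markers of a mesenchymal-type line were present, with VIM at 5755 to 7272 TPM, and KRT8, KRT18, EPCAM, ERBB2 and GATA3 were also above 1 TPM, while CDH1, ESR1 and PGR were at or near 0. The 8 epithelial or luminal markers summed to 1371 to 1511 TPM in TMEM216+IGF1, 1345 to 1663 in TMEM216, 1635 to 1651 in Ctrl+IGF1 and 1607 to 1690 in Ctrl libraries, and their part in the results was not tested. The leukocyte markers PTPRC and CD3E were at or near 0, CD68 stood at 140 to 212 TPM, and none of the basal, fibroblast or adipocyte markers reached a median of 1 TPM. Of the 3 endothelial markers, CDH5 and VWF were at or near 0 and PECAM1 had a median of 1.08 TPM; the 3 summed to 1.52 to 2.25 TPM in TMEM216+IGF1, 1.13 to 1.37 in TMEM216, 0.703 to 0.928 in Ctrl+IGF1 and 1.05 to 1.18 in Ctrl libraries, and their part in the results was not tested. Ctrl+IGF1 replicate 3 stood apart, with ribosomal protein genes taking 16.9% of its TPM, against 12.4% to 14.5% in the other libraries. On the first principal component (22.0% of the variance) its score was 31.0, followed on that side by TMEM216 replicate 1 at 19.4. On the other side TMEM216 replicate 3 stood at -18.2 and TMEM216+IGF1 replicate 2 at -18.1, nearly as far out as TMEM216 replicate 1. The libraries said below to stand apart are Ctrl+IGF1 replicate 3 and TMEM216 replicate 1. The main results that rest on them are given with and without them.

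TEAD factors recognise the sequence GGAATG. The RefSeq sequences upstream of ANKRD1 and CCN2, both common readouts of YAP1, are shown first, with GGAATG in capitals. Each runs 5′ to 3′ along the gene's strand and covers the 250 bases before the annotated start (build GRCh38.p14). ANKRD1 lies on the minus strand at chr10:90921088-90921337 and CCN2 on the minus strand at chr6:131951373-131951622.
ANKRD1: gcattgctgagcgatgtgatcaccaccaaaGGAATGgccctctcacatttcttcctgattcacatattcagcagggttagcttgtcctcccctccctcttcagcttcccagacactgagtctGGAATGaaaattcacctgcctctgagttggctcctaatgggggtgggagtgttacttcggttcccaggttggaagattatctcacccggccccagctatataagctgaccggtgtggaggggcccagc
CCN2: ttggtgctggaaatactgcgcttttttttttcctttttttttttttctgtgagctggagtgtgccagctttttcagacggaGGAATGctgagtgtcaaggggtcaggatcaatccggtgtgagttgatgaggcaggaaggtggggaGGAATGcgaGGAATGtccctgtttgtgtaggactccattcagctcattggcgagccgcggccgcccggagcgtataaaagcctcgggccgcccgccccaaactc
ANKRD1 held 2 matches, at bases -220 and -128 from the start, and CCN2 held 3, at -169, -104 and -95. ANKRD1 also held 1 match to TGANTCA, a loose form of the AP-1 sequence with any base at N. The letters found were TGATTCA, at -195. CCN2 held TATAAA, a form of the TATA box, at -32. Only these exact letters were searched for, so other forms, such as tatataag in the ANKRD1 sequence, were not counted. Any link of these letters to expression was not tested.

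For the other genes with a match, the 30 bases around it show what the TEAD sequence looked like on the gene's strand, again in capitals, where CATTCC is GGAATG read on the opposite strand. The windows lie on the minus strand at chr3:134374499-134374528 for AMOTL2, chr13:21061560-21061589 for LATS2 and chr14:22976884-22976913 for AJUBA, and on the plus strand at chr19:41226531-41226560 for AXL and chr11:102110273-102110302 for YAP1.
AMOTL2: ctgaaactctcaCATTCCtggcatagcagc
LATS2: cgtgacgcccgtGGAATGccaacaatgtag
AJUBA: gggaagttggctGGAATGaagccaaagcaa
AXL: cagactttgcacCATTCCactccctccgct
YAP1: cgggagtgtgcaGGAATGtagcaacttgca
In all, 8 of the 10 genes were matched in the RefSeq promoter table, with 11 promoters of 300 bases (250 before to 50 after the start) among them. At least 1 match on either strand was found in 7 of these 11 promoters, which belong to 7 of the 8 genes; the AMOTL1 promoter had none. Among all 35116 promoters of this length in the table, 14.0% held at least 1 match, 1.37% at least 2 and 0.128% at least 3. On either strand, TGANTCA with any base at N was in 7.71% of them and TATAAA in 11.5%. A match is only a run of letters, and the series has no measurement of factor binding.

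The genes covered a wide range of levels. In Ctrl cells CCN1 was highest at 1127 ± 23.4 TPM (SD, n = 3), followed by ANKRD1, AXL, CCN2, AJUBA, YAP1, AMOTL2, TEAD1 and LATS2, with AMOTL1 last at 19.8 ± 1.16 TPM. Within Ctrl cells only the neighbours ANKRD1 and AXL, and YAP1 and AMOTL2, had overlapping ranges. Ctrl+IGF1 cells had the same order of means, and TMEM216 cells did except that AXL stood above ANKRD1, and in TMEM216+IGF1 cells AMOTL1 also stood above LATS2. The ranges of AMOTL1 and LATS2 overlapped in TMEM216+IGF1 cells. Those of AXL and ANKRD1 overlapped in TMEM216 cells and were apart in TMEM216+IGF1 cells. ANKRD1 exceeded AXL in 0 of 3 TMEM216+IGF1, 1 of 3 TMEM216, 2 of 3 Ctrl+IGF1 and 3 of 3 Ctrl libraries. Across the 12 libraries, the highest value of a gene was between 1.23 times the lowest, for LATS2, and 1.76 times, for ANKRD1.

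**Figure D1:**
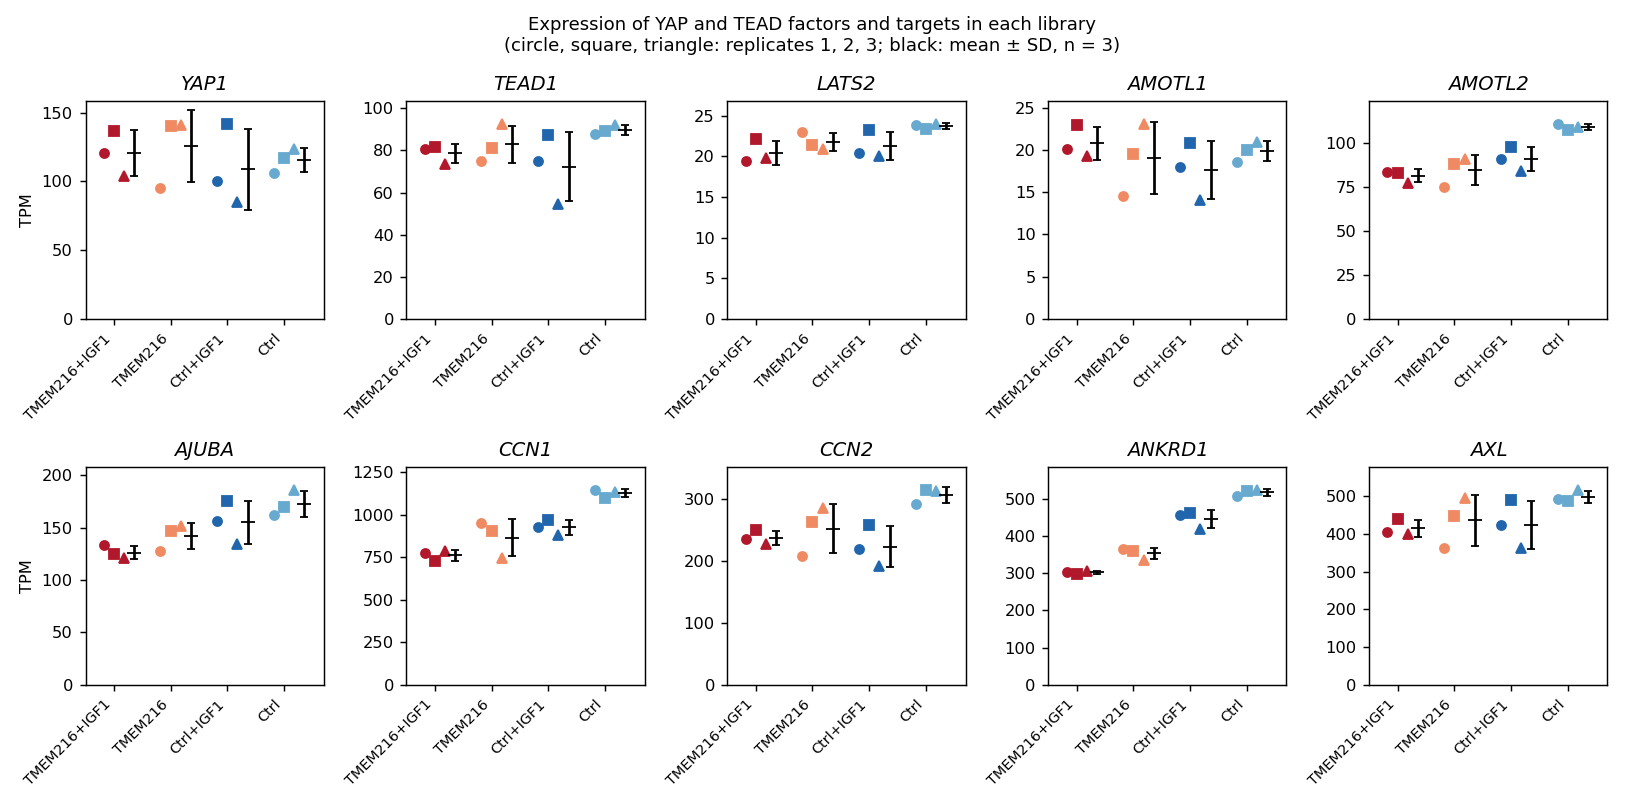
Expression (TPM, linear axis from 0) of the 10 genes in each library of the TMEM216+IGF1, TMEM216, Ctrl+IGF1 and Ctrl groups, with the mean and SD of 3 libraries beside the points. ANKRD1 lies between 299 and 365 TPM in the 6 TMEM216 libraries and between 418 and 525 TPM in the 6 Ctrl libraries, while YAP1 varies as much within groups as between them.

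The first question was how TMEM216 cells differed from Ctrl cells. ANKRD1 was the gene with the clearest difference: it was lower in TMEM216 cells both with and without IGF1, by about the same amount. CCN1, AMOTL2 and AJUBA were lower in TMEM216 cells over both IGF1 conditions combined. The factors YAP1 and TEAD1, and the genes LATS2, AMOTL1, CCN2 and AXL, did not pass the test in any of these comparisons. All values are from bulk RNA, in which fewer expressing cells and less RNA per cell cannot be told apart.

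ANKRD1 encodes a nuclear and sarcomeric ankyrin repeat protein and is a widely used readout of YAP1 and TEAD activity. It had 303, 299 and 306 TPM in TMEM216+IGF1 cells, against 457, 461 and 418 TPM in Ctrl+IGF1 cells. Without IGF1 it had 365, 360 and 336 TPM in TMEM216 cells, against 508, 521 and 525 TPM in Ctrl cells. The ranges did not overlap in either condition, and every one of the 6 TMEM216 libraries lay below every one of the 6 Ctrl libraries. The log2 fold change was -0.56 with IGF1 (SE 0.061, adjusted p 6.30e-04) and -0.55 without it (SE 0.061, adjusted p 7.37e-04), in limma on log2(TPM + 1), a scale on which the change of low genes is understated. ANKRD1 was 1 of the 10 genes past the adjusted p threshold of 0.05 with IGF1, where 1.61% of all 13071 features tested passed and 0.696% passed as lower, and 1 of 10 without IGF1, where 1.09% passed and 0.941% passed as lower. Ranked by p, it stood at place 18 of the 13071 features in both comparisons. It passed under every alternative that was run, with an adjusted p of at most 0.0245.

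CCN1, also known as CYR61, encodes a secreted matricellular protein that binds integrins. It had 772, 726 and 785 TPM in TMEM216+IGF1 cells, against 925, 970 and 883 TPM in Ctrl+IGF1 cells. Without IGF1 the levels were 949, 904 and 743 TPM in TMEM216 cells, against 1146, 1101 and 1135 TPM in Ctrl cells. TMEM216 libraries were below Ctrl libraries without overlap in each condition, although TMEM216 replicates 1 and 2 without IGF1 stood above Ctrl+IGF1 replicate 3. Neither comparison passed on its own (log2 fold change -0.28, SE 0.085, adjusted p 0.136 with IGF1, and -0.39, SE 0.085, adjusted p 0.0529 without it). Averaged over IGF1, CCN1 fell by 0.34 on the log2 scale in TMEM216 cells (SE 0.060, adjusted p 0.00722), and the call held under every alternative run. CCN1 also passed in the comparison without IGF1 when TMEM216 replicate 1 (-0.46, adjusted p 0.0342) or Ctrl+IGF1 replicate 3 (adjusted p 0.0412) was left out, and with IGF1 when TMEM216 replicate 3 was (adjusted p 0.0383).

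AMOTL2 encodes an angiomotin-like scaffold that binds YAP1 and is also one of its targets. It had 84.0, 83.4 and 77.6 TPM in TMEM216+IGF1 cells, against 91.1, 98.0 and 84.6 TPM in Ctrl+IGF1 cells. Without IGF1 AMOTL2 had 75.2, 88.2 and 91.4 TPM in TMEM216 cells, against 111, 108 and 110 TPM in Ctrl cells. The groups were apart in both conditions, narrowly with IGF1. Neither condition passed on its own, with a log2 fold change of -0.16 with IGF1 (SE 0.085, adjusted p 0.394) and -0.37 without it (SE 0.085, adjusted p 0.0663). The average over IGF1 was lower in TMEM216 cells by a log2 fold change of -0.26 (SE 0.060, adjusted p 0.0271). This call was lost under 8 of 20 alternatives, with an adjusted p of at most 0.0719, among them leaving out any 1 of the 3 Ctrl libraries, any 1 of the 3 TMEM216+IGF1 libraries, or Ctrl+IGF1 replicate 1. Without Ctrl+IGF1 replicate 3 AMOTL2 also passed in the comparison without IGF1 (adjusted p 0.0404), although that library is not part of the comparison. It did not pass there when TMEM216 replicate 1 alone was left out. With both libraries left out AMOTL2 passed, at a smaller log2 fold change of -0.28 (adjusted p 0.0466).

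AJUBA encodes a LIM-domain adaptor that binds LATS kinases and limits their action on YAP1. It had 133, 125 and 121 TPM in TMEM216+IGF1 cells, against 156, 175 and 134 TPM in Ctrl+IGF1 cells. Without IGF1 AJUBA had 128, 147 and 151 TPM in TMEM216 cells, against 162, 170 and 186 TPM in Ctrl cells. The groups did not overlap in either condition, and Ctrl+IGF1 replicate 3 came nearest to the TMEM216 libraries. Within a condition AJUBA did not pass (log2 fold change -0.29, adjusted p 0.203 with IGF1, and -0.28, adjusted p 0.255 without it). Averaged over IGF1 AJUBA differed by -0.28 on the log2 scale (SE 0.072, adjusted p 0.0426), and the call held in 7 of 20 alternatives, with an adjusted p of at most 0.110. It was lost in 10 of the 12 fits that left out 1 library, the exceptions being Ctrl+IGF1 replicate 3 and TMEM216 replicate 3, and also without the filter on low values, without a mean-variance trend and with a replicate block. AJUBA overlaps another tested gene on the same strand, AL132780.3, in GENCODE v29, so its reads could have been split between them.

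**Figure D2:**
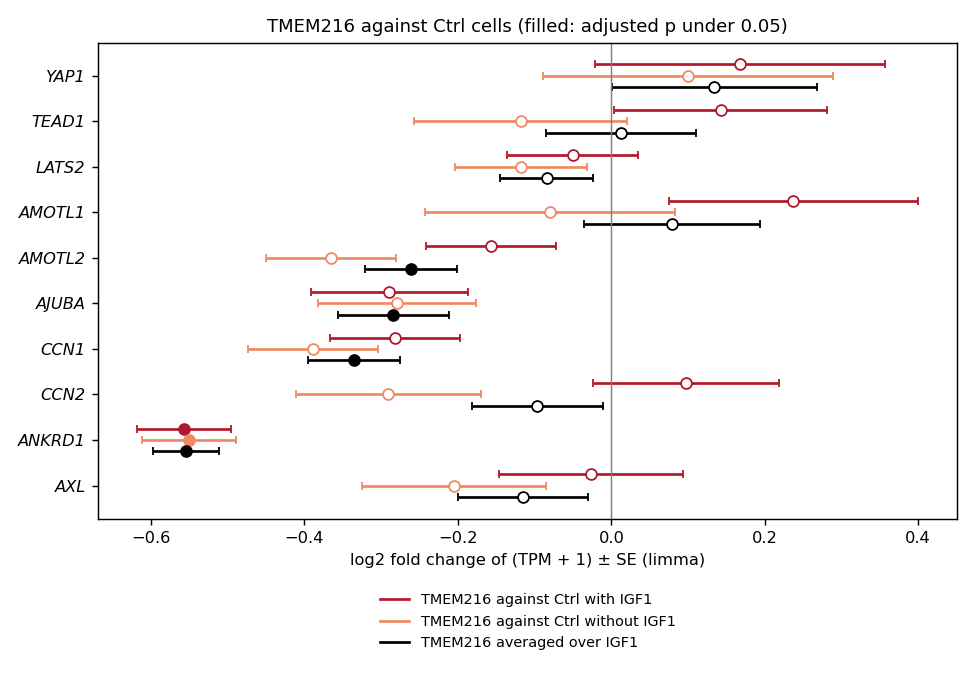
Log2 fold change of (TPM + 1) of the 10 genes in TMEM216 against Ctrl cells with IGF1, without IGF1 and averaged over both, with limma's SE as bars; filled points passed an adjusted p of 0.05. ANKRD1 is filled in all 3 comparisons, and CCN1, AMOTL2 and AJUBA only in the average.

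Over both IGF1 conditions, 4 of the 10 genes thus passed, all lower, where 5.22% of all features passed in either direction and 3.21% were lower. The median log2 fold change of the 10 genes was -0.11, against -0.00054 for all features. Groups without overlap, TMEM216 below Ctrl, were found for 4 of 10 genes with IGF1 (CCN1, ANKRD1, AMOTL2 and AJUBA), against 7.69% of all features. Without IGF1 they were found for 6 of 10 genes (the same 4 with CCN2 and LATS2), against 15.5% of all features. None of the 10 genes was above Ctrl without overlap, against 12% of all features with IGF1 and 6.3% without it. Over both conditions together, ANKRD1 was the 1 gene of the 10 with all 6 TMEM216 libraries below all 6 Ctrl libraries, against 2.42% of all features.

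CCN2, also known as CTGF, encodes a matricellular protein of the same family as CCN1 and is, like ANKRD1, a common readout of YAP1. It had 235, 250 and 228 TPM in TMEM216+IGF1 cells, against 220, 258 and 192 TPM in Ctrl+IGF1 cells, and these ranges overlapped. Without IGF1 it had 209, 264 and 286 TPM in TMEM216 cells, against 292, 315 and 314 TPM in Ctrl cells, with all 3 TMEM216 libraries below the Ctrl libraries. Its log2 fold change was 0.098 with IGF1 (SE 0.12, adjusted p 0.712) and -0.29 without it (SE 0.12, adjusted p 0.321). The average was -0.097, with a 95% interval from -0.28 to 0.090. Without TMEM216 replicate 1, the difference without IGF1 was -0.16.

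AXL encodes a receptor tyrosine kinase for GAS6. It had 405, 439 and 400 TPM in TMEM216+IGF1 cells, against 424, 490 and 362 TPM in Ctrl+IGF1 cells. Without IGF1 AXL had 363, 449 and 497 TPM in TMEM216 cells, against 492, 487 and 517 TPM in Ctrl cells. The groups overlapped in both conditions, and the averaged log2 fold change was -0.12 (95% interval -0.30 to 0.069, adjusted p 0.505).

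The factors themselves had no difference that passed. YAP1 had 121, 137 and 104 TPM in TMEM216+IGF1 cells, against 100, 142 and 84.8 TPM in Ctrl+IGF1 cells. Without IGF1 YAP1 had 95.3, 140 and 141 TPM in TMEM216 cells, against 106, 117 and 124 TPM in Ctrl cells. These ranges overlapped in both conditions, and YAP1 had the widest spread within groups of the 10 genes (SD 0.27 on the log2 scale, against 0.053 for ANKRD1). The averaged log2 fold change of YAP1 was 0.13 (SE 0.13, adjusted p 0.647), with a 95% interval from -0.16 to 0.42.

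TEAD1 had 80.5, 81.6 and 73.6 TPM in TMEM216+IGF1 cells, against 74.8, 87.4 and 54.7 TPM in Ctrl+IGF1 cells. Without IGF1 TEAD1 had 74.9, 81.1 and 92.4 TPM in TMEM216 cells, against 87.7, 89.3 and 92.0 TPM in Ctrl cells. The groups overlapped in both conditions, and Ctrl+IGF1 replicate 3 was far below its own group. The averaged log2 fold change was 0.012 (95% interval -0.20 to 0.23, adjusted p 0.965).

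LATS2, the kinase that phosphorylates YAP1 and is also induced by it, had 19.4, 22.1 and 19.8 TPM in TMEM216+IGF1 cells, against 20.5, 23.2 and 20.0 TPM in Ctrl+IGF1 cells. Without IGF1 it had 23.0, 21.4 and 20.9 TPM in TMEM216 cells, against 23.9, 23.3 and 24.0 TPM in Ctrl cells, narrowly apart. The averaged log2 fold change was -0.084 (95% interval -0.22 to 0.048, adjusted p 0.493). AMOTL1, the other angiomotin-like gene, had 20.1, 22.9 and 19.2 TPM in TMEM216+IGF1 cells, against 18.0, 20.8 and 14.1 TPM in Ctrl+IGF1 cells. Without IGF1 AMOTL1 had 14.5, 19.5 and 23.0 TPM in TMEM216 cells, against 18.6, 20.0 and 20.9 TPM in Ctrl cells. Its groups overlapped in both conditions, and the averaged log2 fold change was 0.079 (95% interval -0.17 to 0.33, adjusted p 0.773).

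The second question was what IGF1 did in each population. No gene of the 10 passed in limma in either population, and few features did at all. In TMEM216 cells 0.0153% of features passed and in Ctrl cells 0.0306%. At an unadjusted p under 0.05, 1 of 10 genes (ANKRD1) was reached in TMEM216 cells, where 4.77% of all features were. In Ctrl cells 5 of 10 were reached (CCN1, CCN2, ANKRD1, AMOTL2 and TEAD1), where 6.89% of all features were. All 5 were lower with IGF1, against 5.67% of all features. These counts moved with the libraries that stood apart, although none of the 10 genes passed in limma without them. In TMEM216 cells the count was 2 of 10 without TMEM216 replicate 1 (3.9% of all features), 1 of 10 without Ctrl+IGF1 replicate 3 (6.42%) and 5 of 10 without both (6.27%). In Ctrl cells it was 6 of 10 without TMEM216 replicate 1 (8.17%), 4 of 10 without Ctrl+IGF1 replicate 3 (3.59%) and 4 of 10 without both (5%).

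In Ctrl cells the log2 fold change with IGF1 was below 0 for 10 of 10 genes, as it was for 72.8% of all features, and ran from -0.47 for CCN2 (SE 0.12) to -0.11 for YAP1 (SE 0.19). The lowest adjusted p among the 10 genes was 0.673. Ctrl+IGF1 libraries lay below Ctrl libraries without overlap for 6 of 10 genes (CCN1, CCN2, ANKRD1, AMOTL2, LATS2 and TEAD1), against 11.8% of all features. Ctrl+IGF1 replicate 3 was the lowest library of its group for 10 of 10 genes, and replicate 2 the highest for 10 of 10. The median log2(TPM + 1) over all features tested had the same order. It was 4.43 in replicate 3, 4.59 in replicate 1 and 4.66 in replicate 2, so this order was not particular to the 10 genes. Without replicate 3, 9 of 10 genes were below 0, the values for CCN2 and TEAD1 were -0.36 and -0.15, and that of YAP1 was 0.049. The median log2 fold change of all features was -0.088 with replicate 3 and -0.024 without it. ANKRD1 differed by -0.22 with that library (SE 0.061) and by -0.17 without it (SE 0.055).

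In TMEM216 cells the log2 fold change with IGF1 was below 0 for 9 of 10 genes, and for 43.9% of all features. ANKRD1 again differed by -0.22 (SE 0.061, adjusted p 0.705), and its ranges, given above, did not overlap between TMEM216+IGF1 and TMEM216 libraries. It was the only gene of the 10 for which they were apart, against 3.69% of all features. AMOTL1, at 0.14 (SE 0.16), was the gene above 0, and the other 8 genes lay between -0.18 and -0.045. TMEM216 replicate 1 was the lowest of its group for 7 of 10 genes and the highest for 3. Its median log2(TPM + 1) over all features tested was also the lowest of the group, at 4.54, against 4.60 and 4.63 in replicates 2 and 3. Without TMEM216 replicate 1, AMOTL1 stood at -0.032 and all 10 genes were below 0. The median log2 fold change of all features was then -0.0027, against 0.018 with that library. Averaged over both populations, ANKRD1 had the lowest adjusted p of the 10 genes, 0.146 (log2 fold change -0.22, SE 0.043), and 0 of 10 passed in limma, against 0.0536% of all features. At an unadjusted p under 0.05, 5 of 10 genes were reached (CCN1, CCN2, ANKRD1, AMOTL2 and AJUBA), against 5.88% of all features. That count was 7 without TMEM216 replicate 1 (6.91% of all features), 4 without Ctrl+IGF1 replicate 3 (5.76%) and 7 without both (6.79%).

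**Figure D3:**
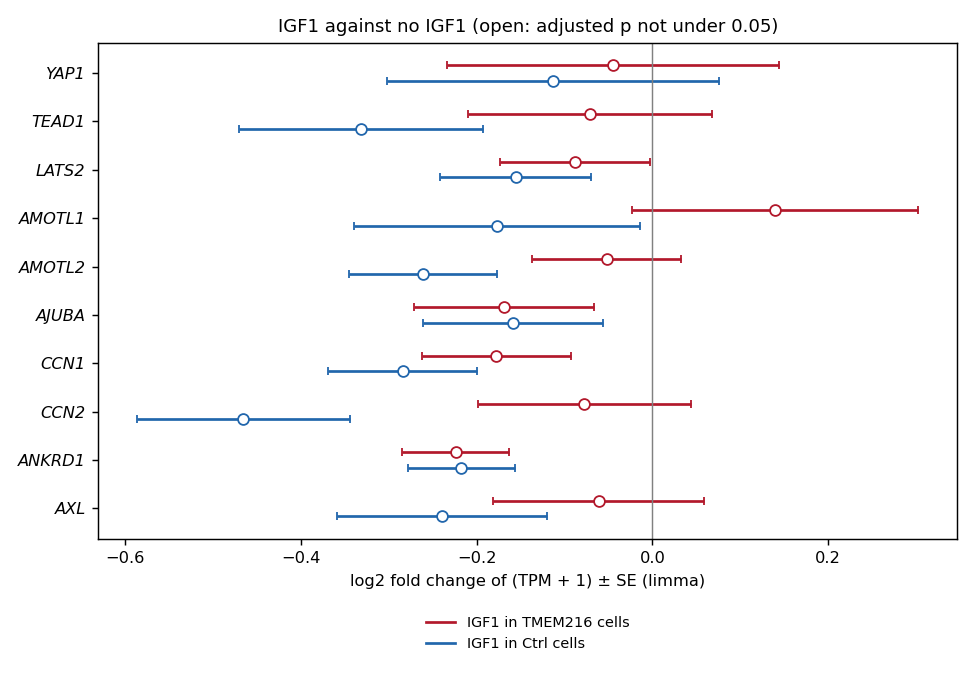
Log2 fold change of (TPM + 1) with IGF1 against without it, in TMEM216 and in Ctrl cells, with limma's SE as bars; no point passed an adjusted p of 0.05. ANKRD1 sits at -0.22 in both populations, while CCN2 sits at -0.078 in TMEM216 and at -0.47 in Ctrl cells.

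Whether the response to IGF1 differed between the populations was tested by the interaction. No gene of the 10 passed in limma (0.0153% of all features did), and 1 of 10, CCN2, was reached at an unadjusted p under 0.05, against 5.38% of all features. The interaction of CCN2 was 0.39 on the log2 scale (SE 0.17, unadjusted p 0.0424, adjusted p 0.754). With both libraries that stood apart left out, a choice made after the data were seen, it was 0.15 (SE 0.11, unadjusted p 0.194). ANKRD1 had an interaction of -0.0065, with a 95% interval from -0.19 to 0.18. The median of all features was itself 0.11 in this contrast, and 0.011 after quantile normalization or 0.0040 after median-of-ratios scaling.

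**Figure D4:**
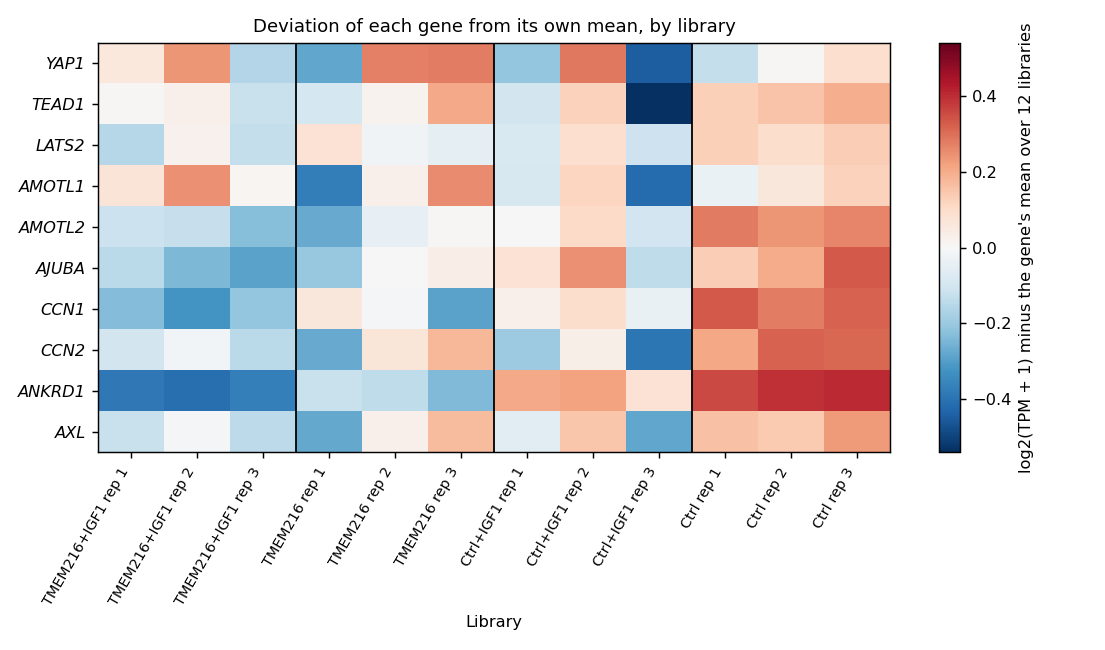
Deviation of each gene from its own mean over the 12 libraries, on the log2(TPM + 1) scale, with one column per library and lines between the groups; red is above the mean and blue below. ANKRD1 is below its mean in all 6 TMEM216 libraries and above it in all 6 Ctrl libraries. The column of Ctrl+IGF1 replicate 3 holds the lowest value of 5 of the 10 genes, and that library also had the lowest median over all features tested (4.43).

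Other genes of the pathway were described from lists, beginning with YAP1's partners. WWTR1, which encodes the YAP1 paralogue TAZ, averaged 76.2 ± 6.23 TPM in TMEM216+IGF1, 65.7 ± 8.97 in TMEM216, 57.5 ± 12.2 in Ctrl+IGF1 and 61.9 ± 1.80 in Ctrl cells (SD, n = 3 each), and did not pass. Without Ctrl+IGF1 replicate 2, WWTR1 passed as higher in TMEM216 cells, at 0.57 on the log2 scale with IGF1 (adjusted p 0.0393) and 0.32 over both conditions (adjusted p 0.0444). TEAD3 had 18.9, 18.7 and 19.8 TPM in TMEM216+IGF1 cells, against 29.0, 29.3 and 24.5 TPM in Ctrl+IGF1 cells. Without IGF1 TEAD3 had 21.2, 20.1 and 20.2 TPM in TMEM216 cells, against 28.8, 30.9 and 31.3 TPM in Ctrl cells. TEAD3 was thus lower in every TMEM216 library than in every Ctrl library, and fell by 0.52 on the log2 scale (SE 0.060, adjusted p 5.55e-04, averaged over IGF1). Within each IGF1 condition TEAD3 passed as well, with an adjusted p of 0.0112 with IGF1 and 0.00967 without it. The call with IGF1 was lost when TMEM216+IGF1 replicate 1 or 2 or Ctrl+IGF1 replicate 1 was left out (adjusted p at most 0.0731) and when only the groups compared were fitted (adjusted p 0.121), and the call without IGF1 when TMEM216 replicate 2 or Ctrl replicate 2 or 3 was (at most 0.0662).

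TEAD2 had 15.3, 13.6 and 13.2 TPM in TMEM216+IGF1 cells, against 18.2, 17.9 and 17.3 TPM in Ctrl+IGF1 cells. Without IGF1 TEAD2 had 12.0, 12.2 and 13.8 TPM in TMEM216 cells, against 18.1, 19.7 and 19.6 TPM in Ctrl cells. It too was lower in all 6 TMEM216 libraries than in any Ctrl library, by a log2 fold change of -0.44 (SE 0.063, adjusted p 0.00216, averaged over IGF1). TEAD2 passed without IGF1 (adjusted p 0.0105), though not without Ctrl replicate 2 or 3 or TMEM216 replicate 2 (at most 0.0739) nor with only the groups compared in the fit (adjusted p 0.0665). With IGF1 it did not pass (adjusted p 0.103), but did after quantile normalization (0.0398) or median-of-ratios scaling (0.0379). TEAD4 had no such difference, at 40.7 ± 1.15 TPM in TMEM216+IGF1, 42.5 ± 8.14 in TMEM216, 39.7 ± 0.486 in Ctrl+IGF1 and 39.3 ± 1.82 in Ctrl cells. By mean level TEAD1 was the highest of the 4 TEAD genes in every group. Of the 8 coactivators, TEADs and VGLL proteins listed, 6 were tested, and 2 were lower and 0 higher over both conditions. Of all features, 3.21% passed there as lower and 5.22% in either direction. The median log2 fold change of the list was -0.035.

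The median log2 fold change of the 26 other YAP and TEAD targets, all tested, was 0.00085 over both IGF1 conditions. Of all features, 3.21% passed there as lower and 5.22% in either direction. Among the 26 targets, 4 were lower in TMEM216 cells and 0 higher. They were EDN1, the precursor of the vasoconstrictor peptide endothelin, GADD45A, a stress-induced growth arrest gene, NUAK2, a kinase of the AMPK family, and the transcription factor FOXF2. EDN1 was the largest, with 19.9, 20.1 and 20.3 TPM in TMEM216+IGF1 cells, against 44.9, 47.3 and 44.5 TPM in Ctrl+IGF1 cells. Without IGF1 EDN1 had 31.8, 29.8 and 26.5 TPM in TMEM216 cells, against 60.5, 61.0 and 59.9 TPM in Ctrl cells. Its TMEM216 and Ctrl libraries were far apart, and it fell by 1.08 on the log2 scale (SE 0.054, adjusted p 3.88e-07). GADD45A changed by -0.45, NUAK2 by -0.29 and FOXF2 by -0.23. The averaged calls of EDN1 and GADD45A held in all 20 alternatives, that of FOXF2 in 13 and that of NUAK2 in 11. Each of these last 2 was lost without Ctrl replicate 2 or 3, Ctrl+IGF1 replicate 1 or any 1 of the TMEM216+IGF1 libraries, and NUAK2 also without TMEM216 replicate 2 or 3, with adjusted p at most 0.0855 for FOXF2 and 0.0892 for NUAK2. Both were also lost with a replicate block (adjusted p 0.0557 for FOXF2 and 0.0636 for NUAK2). EDN1 was also the gene whose pattern over the 12 libraries was most like that of ANKRD1 (Pearson r 0.994), ahead of ASNS (0.991) and EGR1 (0.979).

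For the other genes that passed, the most alike patterns were those of ADAMTSL4, ALS2CL and OBSL1 for CCN1 (r 0.978, 0.963 and 0.956), PLAT, SLC7A5 and CLDN1 for AMOTL2 (0.973, 0.960 and 0.959), and SLC7A5, TCF19 and ESRP2 for AJUBA (0.962, 0.960 and 0.944). These are descriptions over 12 libraries that share the same groups, and they are the highest among all tested features with a gene symbol. With IGF1, EDN1 and GADD45A were the 2 of 26 targets that passed, both as lower, where 0.696% of all features passed as lower. Without IGF1 EDN1 was the only one of the 26, also as lower, against 0.941% of all features. The call of GADD45A with IGF1 was lost without Ctrl+IGF1 replicate 1 or 3 or TMEM216+IGF1 replicate 2 or 3 (adjusted p at most 0.103) and with only the groups compared in the fit (0.0516). In the average over populations EDN1 also fell with IGF1, by 0.46 (SE 0.054, adjusted p 0.0137), a call lost without Ctrl replicate 2 or 3, Ctrl+IGF1 replicate 1, TMEM216 replicate 2 or TMEM216+IGF1 replicate 1 (adjusted p at most 0.0778), or with a replicate block (0.0502).

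Of the 24 Hippo kinases and upstream regulators, 22 were tested, and 1 was higher and 0 lower in TMEM216 cells over both conditions, against 5.22% of all features past the threshold, and the median log2 fold change was 0.024. The 1 that passed was MAP4K4, a kinase that can act on LATS1 and LATS2, at 98.7 ± 7.79 TPM in TMEM216+IGF1, 92.2 ± 12.1 in TMEM216, 70.7 ± 11.0 in Ctrl+IGF1 and 74.2 ± 6.77 in Ctrl cells. Its log2 fold change was 0.40 (SE 0.089, adjusted p 0.0242), and the call was lost without Ctrl replicate 1 or 3, Ctrl+IGF1 replicate 1, TMEM216 replicate 2 or TMEM216+IGF1 replicate 1 or 2 (adjusted p at most 0.0683). LATS1 stood at 14.0 ± 1.64 TPM in TMEM216+IGF1, 13.0 ± 2.15 in TMEM216, 11.4 ± 1.17 in Ctrl+IGF1 and 12.6 ± 0.705 in Ctrl cells and did not pass. With IGF1 and without it, 0 of the 22 passed in limma, and 3 and 4 were reached at an unadjusted p under 0.05, against 15.8% of all features with IGF1 and 13.2% without it.

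AP-1 subunits often occupy enhancers together with TEADs. Of 9 listed and tested, 4 were lower in TMEM216 cells over both conditions and 0 higher, with a median log2 fold change of -0.26. Of all features, 3.21% passed there as lower and 5.22% in either direction. FOSL1, the highest of the 9 with up to 1124 TPM, did not pass (0.17, adjusted p 0.265). JUN, with up to 153 TPM, did not pass either (-0.0071, adjusted p 0.957). Averaged over IGF1, JDP2, a repressor of AP-1, changed by -1.66, and the immediate early genes FOS, FOSB and JUNB by -1.57, -1.55 and -0.41. FOS changed by -2.47 with IGF1 and by -0.68 without it (interaction -1.79, adjusted p 9.65e-04). The call of FOS without IGF1 held in 16 of 21 alternatives. JDP2 changed by -2.24 without IGF1 and by -1.08 with it, where it did not pass (adjusted p 0.136). FOSB, with at most 9.83 TPM, passed in both conditions (-1.21 with IGF1, -1.90 without it). JUNB passed only with IGF1 (-0.53), at -0.28 without it. Its call with IGF1 held in 14 of 21 alternatives, with an adjusted p of at most 0.102 in the others. Serum response factor (SRF) and its MRTF coactivators share several targets with YAP1. Of 16 genes listed for them 15 were tested, and 3 were lower and 0 higher, against 3.21% of all features lower. These were TAGLN, TPM1 and MYL9, which encode actin-associated or contractile proteins, at -0.52, -0.34 and -0.31. The list median was -0.0093. TPM1 passed in 8 of 20 alternatives and was lost in 9 of the 12 fits without 1 library (adjusted p at most 0.114), and MYL9 was lost without Ctrl replicate 3 or TMEM216+IGF1 replicate 1 or 2 (at most 0.0556). In the CCN family 3 of 6 genes were tested, and CCN1 was the 1 that passed, as lower, against 3.21% of all features.

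**Figure D5:**
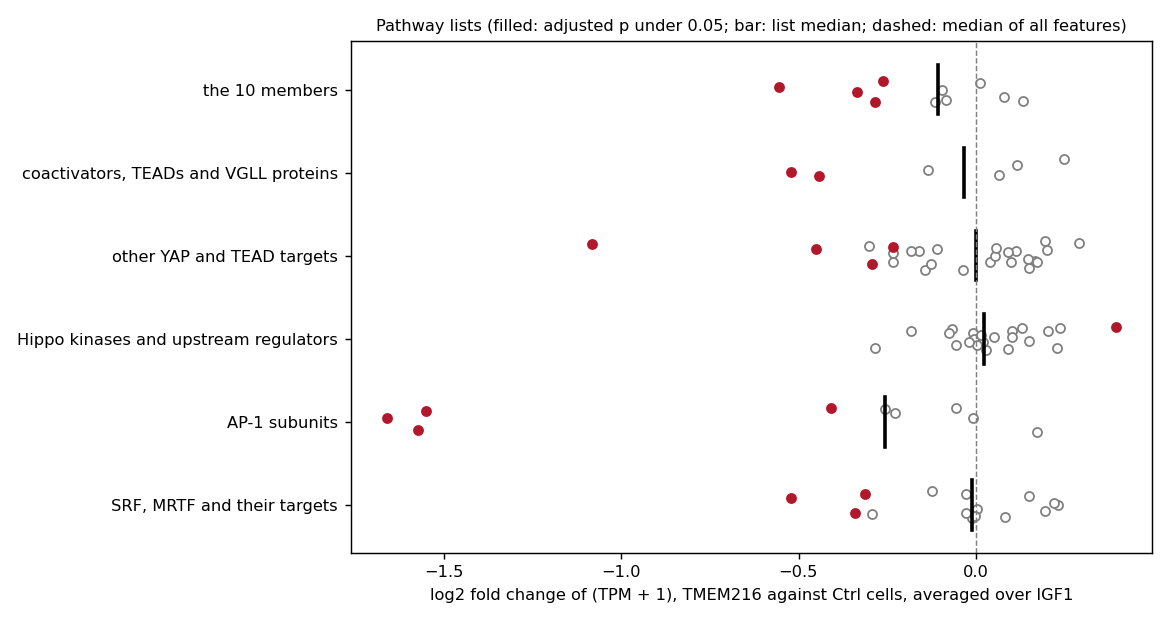
Log2 fold change of (TPM + 1) in TMEM216 against Ctrl cells, averaged over IGF1, for every tested gene of the 10 genes and of 5 pathway lists; filled points passed an adjusted p of 0.05, bars are list medians and the dashed line is the median of all features. Filled points lie below 0 in each list except the Hippo kinases and upstream regulators, where MAP4K4 lies above 0.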

How the data were processed

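Total RNA from the 12 libraries was sequenced after preparation with an Illumina TruSeq RNA kit, per the labels' protocols. The authors deposited TPM values for 21574 features, made with HISAT2, StringTie and RSEM per the submitters' processing notes; versions, roles, genome build, annotation, strand setting and depth: not given in the sources used here. Those TPM values were used as deposited, on the scale log2(TPM + 1). The filter kept 13071 features, those reaching a TPM of 1 in 3 libraries, and limma 3.58.1 (R 4.3.3, with the package data.table in version 1.17.8) was fitted to the 4 groups together, with a mean-variance trend, two-sided tests of 7 contrasts and Benjamini-Hochberg adjustment over the 13071 features. SE is limma's moderated standard error, intervals are 95%, and the threshold was an adjusted p of 0.05. The fit was tested on simulated data. TPM gives no read counts, so no counting error is given.

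The genes and lists were chosen with earlier results of these data known. Named beside the 10 genes are list members past the threshold, up to 4 with the smallest p, with WWTR1, LATS1 and TEAD2 to TEAD4 always, and for each gene of the 10 that passed the 3 features with the highest Pearson r. The alternatives were quantile normalization, a pseudocount of 0.1, median-of-ratios scaling, a filter at a TPM of 5 or none, a fit without trend, a fit of only the groups compared, a replicate block and leaving out each library in turn; leaving out both libraries that stood apart was added after the data were seen. Promoters come from RefSeq (GRCh38.p14), which was not matched to the authors' build, and gene overlaps from GENCODE v29. Tables were handled with pandas 2.3.3 and numpy 2.4.6 and figures drawn with matplotlib 3.10.9 in Python 3.11.15.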

Additional observations from a re-analysis of the deposited data

How the results depend on the processing

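In TMEM216 against Ctrl cells, ANKRD1 passed under all 21 alternatives with IGF1, all 21 without it and all 20 of the average, and CCN1 under all 20 of the average. The count of genes past the threshold without IGF1, 1 of 10, became 2 with a minimum TPM of 5 or median-of-ratios scaling, and 3 with quantile normalization or with both libraries that stood apart left out; CCN1 and AMOTL2 were the ones gained. With IGF1 the count of 1 became 2 with median-of-ratios scaling or both libraries left out, with AJUBA added. Calls over all features rose as well with both libraries left out, to 288 without IGF1 and 238 with it, from 143 and 211 in the main fit. Calls over all features with a minimum TPM of 5 or the 2 rescalings are not given here. For the 10 genes, leaving out 1 library at a time gave counts of 1 to 3 without IGF1, 1 to 2 with it and 2 to 4 for the average. No gene of the 10 passed for IGF1 or the interaction under any alternative. Over all features, fits of only the groups compared called 49 without IGF1 and 49 with it, against 143 and 211, and the averaged count of 682 ranged from 392 to 1061. Leaving out 1 library called 43 to 273 features without IGF1 and 84 to 462 with it.

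Same-numbered libraries did not deviate together (18 pairs, r -0.286 to 0.165, median 0.016, 4 over 0.1). The 36 pairs with different numbers had r from -0.274 to 0.278, with a median of 0.0039 and 6 over 0.1. The numbers were therefore not taken to pair samples. With a replicate block the averaged count was 2 of 10 (ANKRD1 and CCN1), with AMOTL2 at an adjusted p of 0.0512 and AJUBA at 0.0731. In the separate comparison with IGF1, that fit called 140 of all features, against 211 in the main fit. The 140 is therefore not the background of the averaged count, whose range over all alternatives is given above.

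Signs turned only for values that did not pass. Quantile normalization gave -0.022 for TEAD4 with IGF1, -0.047 for the LATS2 interaction and 0.018 for AMOTL1 under averaged IGF1. Median-of-ratios scaling gave -0.018 for TEAD4 with IGF1, 0.014 for AMOTL1 under averaged IGF1, and interactions of -0.0053 for CCN1, -0.039 for LATS2 and -0.042 for YAP1. Without both libraries, AMOTL1 stood at 0.093 without IGF1, CCN2 at -0.0060 and TEAD1 at -0.042 with it, TEAD1 at -0.046 in the average, YAP1 at 0.049 for IGF1 in Ctrl cells, AMOTL1 at -0.032 for IGF1 in TMEM216 cells, and the interactions of AXL and YAP1 at -0.058 and -0.28. The cause was not tested.

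Leaving out 1 library at a time gave, for TMEM216 against Ctrl without IGF1, ranges of -0.22 to 0.093 for AMOTL1, -0.090 to 0.13 for LATS1, -0.0085 to 0.26 for TEAD4 and -0.022 to 0.17 for WWTR1. With IGF1 they were -0.0060 to 0.21 for CCN2, -0.11 to 0.013 for LATS2, -0.14 to 0.081 for AXL and -0.042 to 0.29 for TEAD1, and in the average -0.080 to 0.086 for TEAD1. For IGF1 in Ctrl cells YAP1 ranged over -0.32 to 0.049. In TMEM216 cells the ranges were -0.21 to 0.017 for CCN2, -0.032 to 0.28 for AMOTL1, -0.14 to 0.0027 for AMOTL2, -0.14 to 0.0097 for TEAD1, -0.23 to 0.058 for YAP1 and -0.19 to 0.038 for AXL. For averaged IGF1 they were -0.10 to 0.054 for AMOTL1 and -0.18 to 0.0023 for YAP1, and for the interaction -0.11 to 0.082 for AJUBA, -0.051 to 0.019 for ANKRD1 and -0.12 to 0.27 for YAP1.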
